A study of Sus scrofa with 16 samples.

Results

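The enzymes that build fatty acids from acetyl-CoA and then desaturate and elongate them were followed in the subcutaneous fat of 16 growing pigs. The members were fixed by name: ACLY, ACACA, FASN, ME1, SCD, ELOVL6, FADS1 and FADS2. Probes that the scanner files name for a member were taken where 8 or more of the 16 arrays gave a signal well above background. On the array 18 of 43603 non-control probes bore such a name, for 6 of the 8 genes, and all 18 passed: 2 for ACACA, 3 for FASN, 1 for ME1, 9 for SCD, 2 for FADS1 and 1 for FADS2. Another 5 probes were added because other entries of the files point to a member. ACLY was found as 3 probes under its older name ACL, and 1 further probe each of ME1 and FADS1 is recognised from its description. ELOVL6, the elongase that lengthens palmitate, was not analysed here. The account therefore covers 23 probes of 7 genes, among 4555 genes that a named probe measured.

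The pigs were sampled at 20 kg body weight and had free access to feed. Of these pigs 8 were of a low-RFI and 8 of a high-RFI line, bred in opposite directions for residual feed intake, and no unselected pigs were analysed here. Residual feed intake is the feed an animal eats beyond what its growth and maintenance predict, so low-RFI pigs are the more feed-efficient. The pigs of each line are numbered 1 to 8, and replicates 5-8 were also set against replicates 1-4, with 4 pigs of each line in either set. The labels do not say what separates these numbers, nor whether pigs are related.

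In the pig, adipose tissue is a main site of fatty acid synthesis. ACLY splits citrate to give cytosolic acetyl-CoA, ACACA carboxylates it to malonyl-CoA in the committed step, and FASN joins these units into palmitate. ME1 supplies NADPH, which FASN consumes. SCD places the first double bond into saturated fatty acids, mainly making oleate from stearate, and FADS1 and FADS2 are the delta-5 and delta-6 desaturases that act on polyunsaturated fatty acids taken from the diet. In mammals the lipogenic genes share control by the sterol and carbohydrate response factors SREBF1 and MLXIPL.

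Each probe is a 60-base oligonucleotide and is called here by the base of its transcript at which it starts, as the files give it. The following probes lie in a stretch with an open reading frame and are shown because the results below turn on whether probes of a gene ranked the pigs alike. The ACACA pair lies near opposite ends of the coding part, the FASN probe is one of those whose size of change is set against the brightest FASN probe, the SCD probe is the only one of 9 that starts before base 4084, and capitals mark the run of 16 bases that the FADS1 and FADS2 probes have in common.
ACACA 120: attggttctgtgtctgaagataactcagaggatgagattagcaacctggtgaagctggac
ACACA 6661: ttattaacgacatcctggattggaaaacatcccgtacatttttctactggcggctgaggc
FASN 7111: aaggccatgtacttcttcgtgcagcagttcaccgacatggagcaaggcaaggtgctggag
SCD 395: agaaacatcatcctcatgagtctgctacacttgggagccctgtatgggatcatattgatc
FADS1 855: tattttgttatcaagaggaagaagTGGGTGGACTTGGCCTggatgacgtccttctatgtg
FADS2 867: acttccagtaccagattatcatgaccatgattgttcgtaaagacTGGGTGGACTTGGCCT
Other probes overlap more. The SCD probes at 4958 and 4962 share 27 bases and those at 4745 and 4785 share 21, so they do not read SCD independently.

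Between 68.7% and 80.3% of spots were well above background on each array, and no spot was saturated. All values are log2 of the deposited processed signal minus the 75th percentile of the array, so 0 is that percentile and a difference of 1 is a doubling, and the number of arrays limits the precision. All 12 adipocyte markers examined, among them ADIPOQ and FABP4, were measured. Some arrays also carried markers of other tissues. Averaged over 12 measured skeletal muscle genes of 15 listed and centred on their means, the level was 7.94 on low-RFI replicate 8 and at most 1.33 on any other array. For 6 measured epithelial genes of 10 listed it was 3.24 on high-RFI replicate 6 and 2.07 on replicate 2, and for 6 leukocyte genes of 10 listed 1.76 on high-RFI replicate 5. Results are therefore also given without these 4 arrays where they change. In whole tissue, fewer adipocytes and less RNA per adipocyte cannot be told apart.

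The early, cytosolic steps varied several-fold between pigs. ACLY, read by its brightest probe at 4288, had a lowest, median and highest signal of 6.59, 7.90 and 8.36 in low-RFI pigs, against 6.94, 7.38 and 8.15 in high-RFI pigs. The lowest and the highest ACLY signals were both in low-RFI pigs, replicates 1 and 4, and lay 3.41-fold apart, while the ranges of the lines overlapped. ACACA, which commits acetyl-CoA to fat, ran from 1.52 over 2.54 to 2.95 in low-RFI pigs and from 1.47 over 2.01 to 2.99 in high-RFI pigs at its probe at 120. At 6661 the same gene ran from -1.12 over 0.84 to 1.61 in low-RFI pigs and from -0.88 over 0.28 to 1.05 in high-RFI pigs. Low-RFI replicate 6 was lowest at 6661 but not at 120, so the position of a pig depended on the probe.

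FASN and ME1 gave wide ranges too, except at the brightest FASN probe. At the FASN probe at 7111 the lowest, median and highest signals were 6.01, 6.54 and 7.56 in low-RFI pigs, against 5.34, 6.51 and 7.52 in high-RFI pigs. The highest was 4.66-fold the lowest. At the FASN probe at 7914 the signals were 8.39, 8.68 and 8.92 in low-RFI pigs, against 8.26, 8.62 and 8.90 in high-RFI pigs, a spread of only 1.57-fold, and 22.9% of all probes varied less. ME1, the NADPH-forming malic enzyme, had at 2988 signals of 1.37, 3.13 and 5.26 in low-RFI pigs, against 1.68, 2.99 and 4.56 in high-RFI pigs. This was one of the most variable probes of the set. The range spanned 14.8-fold, and its SD over the 16 arrays, 1.08, exceeded that of 96.7% of the probes measured, whose median SD was 0.31. The other ME1 probe, at 2096, was brighter and varied less, with a mean of 4.92 and an SD of 0.75, against a mean of 3.16 at 2988.

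SCD, the stearoyl-CoA desaturase, was read by 9 probes whose spread narrowed from base 4084 onwards. At 4084 the lowest, median and highest signals were 5.43, 6.51 and 8.32 in low-RFI pigs, against 4.43, 6.99 and 7.92 in high-RFI pigs, a 14.8-fold range over all pigs. At 395 the range was 10.9-fold, at 4494 it was 7.12-fold, at 4785, the brightest probe, 4.36-fold, and at 5044 only 1.56-fold. High-RFI replicate 5 had the lowest signal at each SCD probe except the one at 5044, where low-RFI replicate 6 was lowest. The processed intensity of the probe at 5044 lay between 86846 and 154038 with no spot marked as saturated, and that of the FASN probe at 7914 between 131286 and 249687. Whether signal near the top of the scale was compressed there was not tested.

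The range of the polyunsaturated fatty acid desaturases depended on the probe. FADS1 at its brightest probe, at 3198, had signals of 4.49, 4.73 and 5.14 in low-RFI pigs, against 4.77, 4.98 and 5.22 in high-RFI pigs, a 1.66-fold range over all 16. The other FADS1 probes were dim, with means of -3.77 ± 0.31 at 855 and -1.81 ± 0.47 at 2501 (SD, n = 16), and ranges of 2.29-fold at 855 and 3.55-fold at 2501. FADS2 was measured by a single dim probe at 867, well above background on 15 of 16 arrays, with signals of -5.38, -4.95 and -4.42 in low-RFI pigs, against -5.64, -4.74 and -3.84 in high-RFI pigs. Its range over all pigs was 3.48-fold, close to that of ACLY at 4288. The map of centred signals shows the pattern of each probe from pig to pig.

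**Figure D1:**
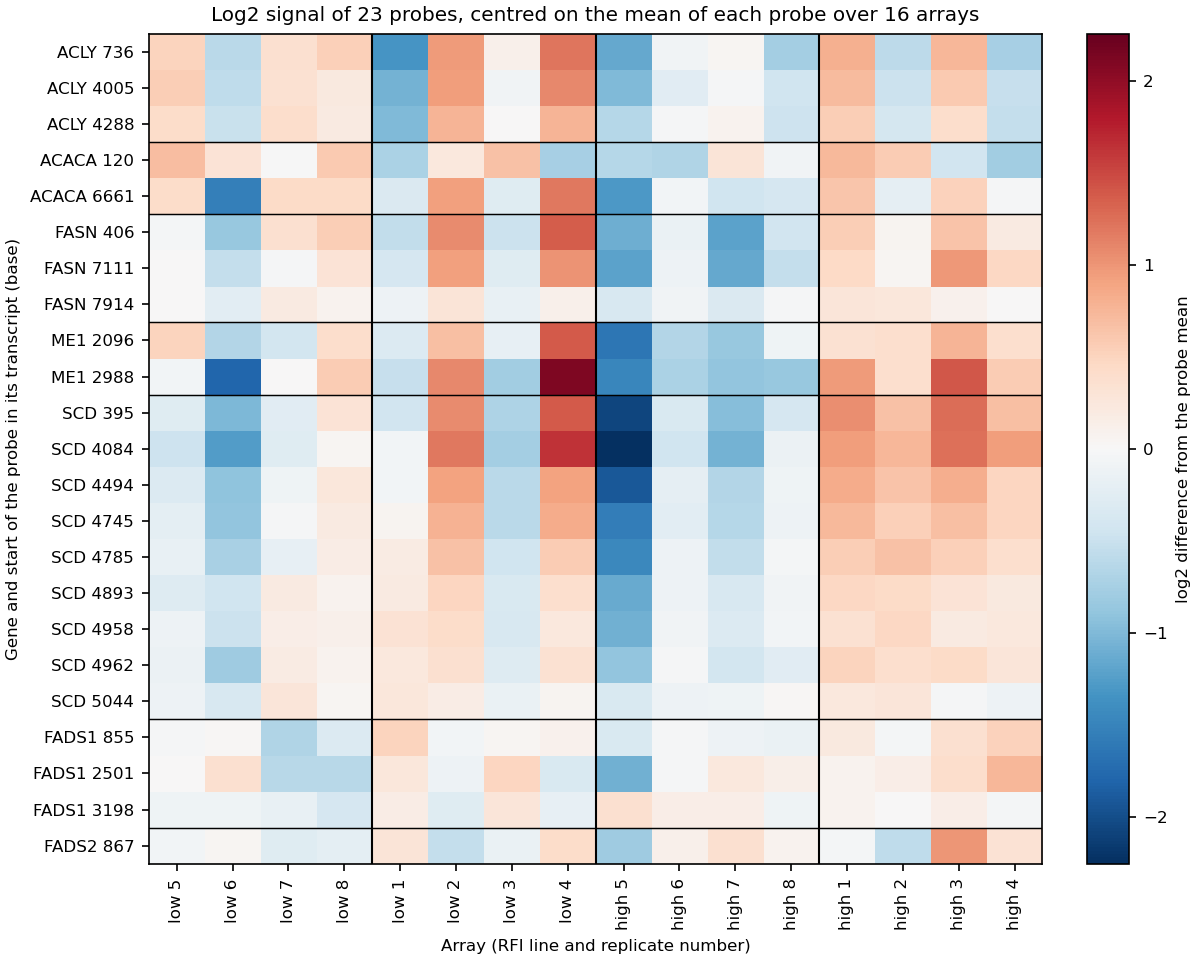
Log2 signal of 23 probes (rows, gene and start base) on 16 arrays (columns, line and replicate number), centred on each probe's mean over the 16 arrays, with red above and blue below that mean. High-RFI replicate 5 is blue for SCD, ME1 and FASN, low-RFI replicate 4 is red for them, and the SCD rows fade towards base 5044.

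Probes of one gene mostly ranked the pigs alike, but for ACACA and FADS1 they did not. The 3 ACLY probes had a Pearson r of 0.98 with each other over 16 arrays, the ME1 pair 0.89, the FASN probes 0.804 to 0.955 and the 36 pairs of SCD probes 0.58 to 0.995, with a median of 0.95. These are descriptions, since probes on an array share the same RNA. The 8 lowest SCD values, from 0.58 to 0.83, all involved the probe at 5044. The ACACA probes at 120 and 6661 had an r of 0.06, and only the second followed the other enzymes. With the 17 probes of ACLY, FASN, ME1 and SCD, the ACACA probe at 6661 had r between 0.62 and 0.90, against -0.08 to 0.32 for the probe at 120. The brightest FADS1 probe, at 3198, had an r of 0.26 with the probe at 855 and 0.17 with that at 2501, whereas those dim probes had an r of 0.75 with each other.

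**Figure D2:**
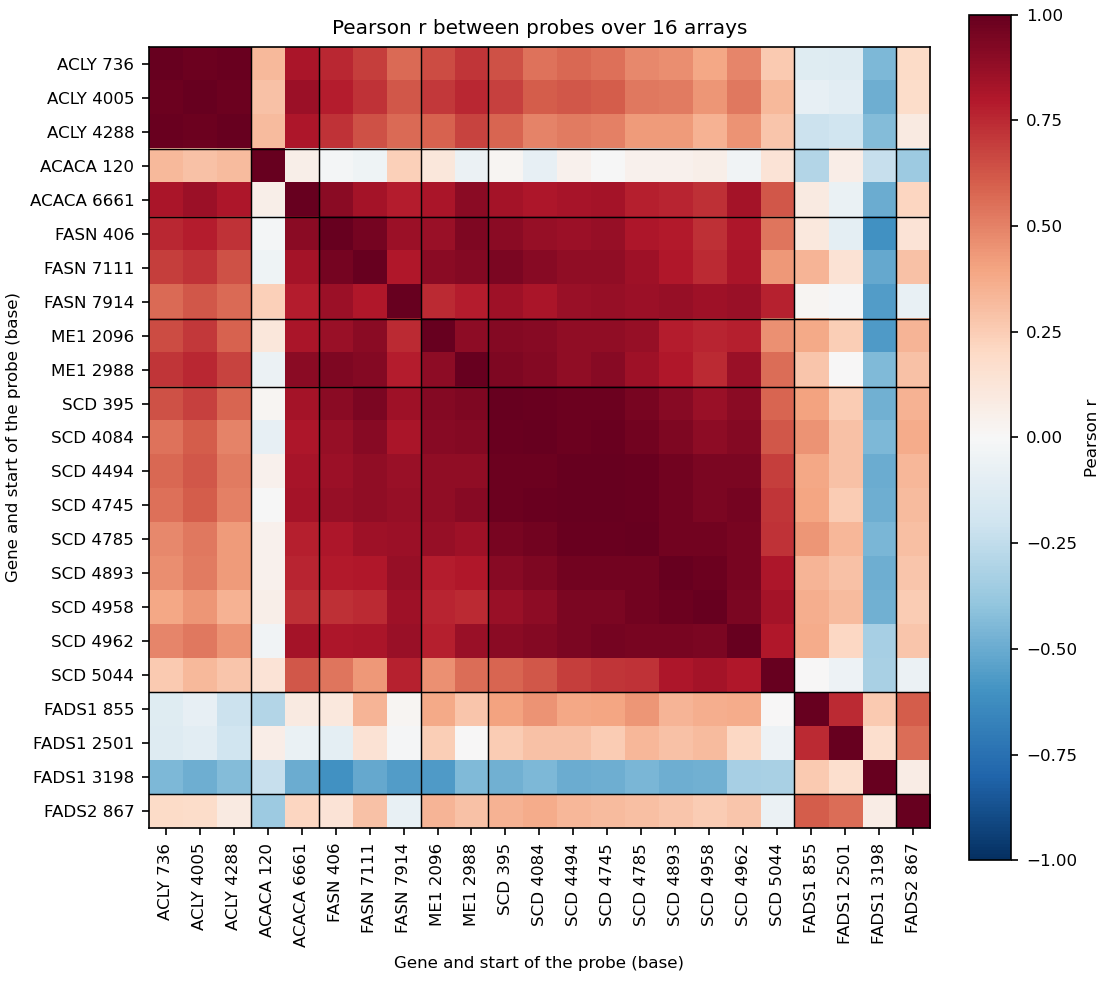
Pearson r over 16 arrays between each pair of the 23 probes (rows and columns, gene and start base), from blue (-1) to red (1). ACLY, ACACA at 6661, FASN, ME1 and SCD form a red block, ACACA at 120 stays pale, and FADS1 at 3198 is blue against the block.

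Size also differed between probes that ranked pigs alike. A log2 change of 1 at the FASN probe at 7111 went with only 0.245 at 7914. For SCD, the same change at 395 went with 1.08 at 4084 and 0.59 at 4785. At 5044 the slope on 395 was 0.12, but with an r of only 0.58 that pair also ranked pigs less alike. A fold change of FASN or SCD read here thus depended on the probe, and both bright and less bright probes are given below.

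Setting the lines against each other asks whether pigs bred for better feed efficiency differ in fat at this weight. None of the enzymes separated them. In limma 0 of 32097 probes passed an adjusted p under 0.05 (0%), and 0 of the 18 member probes or of all 23. An unadjusted p under 0.05 was reached by 1161 probes in all (3.62%) and by 0 members. The ranges of the lines overlapped for all 23, as for all but 0.00623% of probes. Of the 23 probes 18 were higher and 5 lower in low-RFI pigs, where 51% of all probes were higher, with a median difference of 0.04, and the median over all probes was 0.0035. The 5 lower ones were the 3 FADS1 probes, the FADS2 probe and the SCD probe at 4962. Of the 18 higher ones 8 were SCD probes, which mostly rank pigs alike.

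ACLY averaged 7.72 ± 0.62 in low-RFI pigs and 7.46 ± 0.45 in high-RFI pigs at 4288 (SD, n = 8 each), a difference of 0.27 with a 95% interval from -0.27 to 0.80. FASN averaged 6.68 ± 0.58 in low-RFI pigs and 6.41 ± 0.79 in high-RFI pigs at 7111 (SD, n = 8 each), and its difference of 0.27 had an interval from -0.42 to 0.95. The bright FASN probe at 7914 differed by 0.04, within -0.20 to 0.28. SCD stood at 8.69 ± 0.49 in low-RFI pigs and 8.68 ± 0.72 in high-RFI pigs at 4785 (SD, n = 8 each), a difference of 0.01 with an interval from -0.59 to 0.62. For ME1 at 2988 the interval, -0.94 to 1.25, could not exclude a doubling in low-RFI pigs. The brighter ME1 probe, at 2096, differed by 0.35. ACACA differed by 0.26 at 120 and by 0.32 at 6661, with intervals that spanned 0 at both.

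The smallest p among the members belonged to FADS1 at 3198, which averaged 4.77 ± 0.22 in low-RFI pigs and 4.96 ± 0.14 in high-RFI pigs (SD, n = 8 each). Its difference of -0.19 (SE 0.10) had an unadjusted p of 0.0744 and an adjusted p of 0.9997 in limma, and an exact permutation of the line labels gave a two-sided p of 0.0592. Within slides 1 to 4 this probe differed by -0.33, -0.15, 0.03 and -0.31. The differences within slides changed sign for ACLY at 4288 as well, at 0.32, 0.23, -0.02 and 0.53, and for SCD at 4785, at 0.02, 0.41, -0.50 and 0.14. Every slide carried 2 arrays of each line and 2 of each replicate set.

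The direction of the line difference also turned between the replicate sets for several enzymes. For SCD at 395, low-RFI minus high-RFI was 0.63 within replicates 5-8 and -0.58 within replicates 1-4. ME1 at 2988 gave 0.67 within replicates 5-8 and -0.36 within replicates 1-4, and FASN at 7111 gave 0.69 within replicates 5-8 and -0.16 within replicates 1-4. Of the 23 probes 19 were higher in low-RFI pigs within replicates 5-8 (51.1% of all probes) and 4 within replicates 1-4 (48.8%), and 0 passed in limma in either set (0% of all probes). The test of this change itself, the interaction of line and replicate set, was passed by 0 of 32097 probes (0%), with 2181 at an unadjusted p under 0.05 (6.8%), and by 0 members. It was positive for 22 of the 23 (50.9% of all probes). All 9 SCD probes, which mostly rank pigs alike, fell on the same side in each of these counts. The 23 probes are therefore not independent. The smallest adjusted p of a member in limma was 0.761. The interaction was 1.21 for SCD at 395, with an interval from -0.21 to 2.64, so a change of that size or none could not be told apart.

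**Figure D3:**
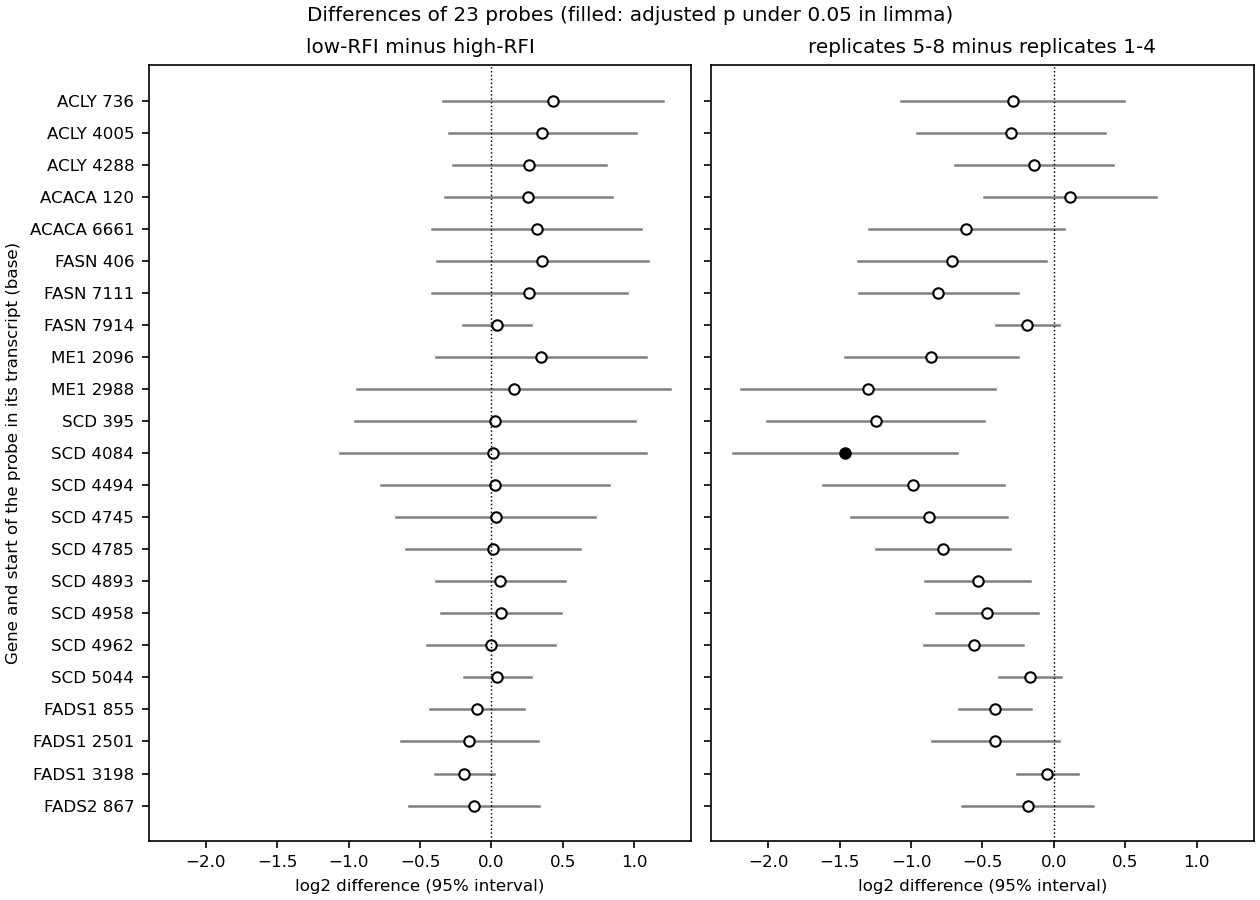
Log2 difference of each of the 23 probes with its 95% interval in limma, low-RFI minus high-RFI on the left and replicates 5-8 minus replicates 1-4 on the right. All line intervals include 0, and on the right those of SCD (except at 5044), ME1, FASN (except at 7914) and FADS1 at 855 lie below 0, with the SCD probe at 4084 the 1 filled point.

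Set against replicates 1-4, replicates 5-8 had lower signals for SCD, ME1 and FASN, but 1 member probe passed the threshold over all probes. SCD at 4084 had a lowest, median and highest signal of 4.43, 6.22 and 6.74 in replicates 5-8, against 5.91, 7.62 and 8.32 in replicates 1-4. It fell by 1.46 on the log2 scale (SE 0.37, 95% interval -2.25 to -0.68, limma adjusted p = 0.0366), with line in the model. The ranges overlapped, because low-RFI replicates 1 and 3 were the lowest of replicates 1-4, at 6.62 and 5.91. Over the whole array 1616 of 32097 probes passed (5.03%), of which 1020 were lower in replicates 5-8 (3.18%), so 1 of 18 member probes by name is near that share. Of the 18, 17 were lower in replicates 5-8 (55.1% of all probes), and the ranges of the sets overlapped for all 18 (0.371% of all probes did not overlap). An unadjusted p under 0.05 with a lower signal was found for 12 of the 18 probes by name, against 14.3% of all probes, and 8 of the 12 were SCD probes that rank pigs alike.

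The other 8 SCD probes did not pass. Their differences ran from -1.25 at 395 (SE 0.36, adjusted p = 0.0551 in limma) to -0.17 at 5044 (SE 0.10, adjusted p = 0.342 in limma). At the brightest probe, at 4785, SCD averaged 8.30 ± 0.52 in replicates 5-8 and 9.07 ± 0.38 in replicates 1-4 (SD, n = 8 each), a difference of -0.77 (adjusted p = 0.0544 in limma). Within slides 1 to 4 the difference at 4084 was -1.43, -1.70, -1.24 and -1.48, negative on each slide. With slide as a block 8 member probes passed in limma, namely 5 other SCD probes, ME1 at 2988 and FASN at 7111 beside SCD at 4084, where 4.89% of all probes passed.

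ME1 averaged 2.51 ± 0.79 in replicates 5-8 and 3.81 ± 0.96 in replicates 1-4 at 2988 (SD, n = 8 each), a difference of -1.30 (SE 0.42, adjusted p = 0.0777 in limma). At its brighter probe, at 2096, ME1 differed by -0.86 (adjusted p = 0.0876 in limma). FASN at 7111 averaged 6.14 ± 0.56 in replicates 5-8 and 6.95 ± 0.56 in replicates 1-4 (SD, n = 8 each), a difference of -0.81 (SE 0.26, adjusted p = 0.0782 in limma). The bright FASN probe at 7914 differed by -0.19, within -0.41 to 0.03. ACACA gave 0.11 at 120 and -0.61 at 6661, both with intervals that included 0. ACLY differed by -0.14 at 4288, within -0.69 to 0.41, and by -0.29 and -0.30 at its other probes. FADS1 at 855 differed by -0.41 (SE 0.12, adjusted p = 0.0575 in limma), but at its brightest probe by -0.05, within -0.26 to 0.17.

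The call at 4084 depended on single arrays. Without 1 array at a time it held in 5 of 16 fits, and the adjusted p in limma ran from 0.00413 (without low-RFI replicate 3) to 0.0750 (without low-RFI replicate 2). The difference itself stayed between -1.69 and -1.23. Without low-RFI replicate 3, 12 member probes passed, with 14.8% of all probes. Without low-RFI replicate 8 there were 6, with 4.92% of all probes, and without low-RFI replicate 1 there were 3, also with 4.92%, while in 11 fits 0 passed. The call was lost without any 1 of low-RFI replicates 2, 4, 5, 6 and 7 and high-RFI replicates 1, 2, 3, 4, 6 and 7. Without the 4 arrays with muscle, epithelial or leukocyte markers the difference was -1.36 and 0 of the 23 probes passed. An exact permutation of the set labels within lines gave an unadjusted two-sided p of 0.00327 for this probe.

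The difference between the sets was larger by value in high-RFI than in low-RFI pigs. In high-RFI pigs SCD at 4084 had signals of 4.43, 6.23, 5.62 and 6.55 in replicates 5 to 8, against 7.62, 7.44, 7.92 and 7.63 in replicates 1 to 4. Each of the first 4 pigs was below each of the others. In low-RFI pigs the signals were 6.22, 5.43, 6.41 and 6.74 in replicates 5 to 8, against 6.62, 7.87, 5.91 and 8.32 in replicates 1 to 4, which overlapped. ME1 at 2988 showed the same in high-RFI pigs, with 1.68, 2.44, 2.27 and 2.30 in replicates 5 to 8, against 4.13, 3.54, 4.56 and 3.73 in replicates 1 to 4. In low-RFI pigs ME1 overlapped, with 3.09, 1.37, 3.18 and 3.73 in replicates 5 to 8, against 2.64, 4.23, 2.38 and 5.26 in replicates 1 to 4.

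FASN at 7111 had 5.34, 6.44, 5.38 and 6.01 in high-RFI replicates 5 to 8, against 6.99, 6.59, 7.52 and 7.01 in high-RFI replicates 1 to 4. Low-RFI replicates 5 to 8 had 6.55, 6.01, 6.52 and 6.86, against 7.48 and 7.56 in replicates 2 and 4 but 6.16 and 6.28 in replicates 1 and 3. In high-RFI pigs 13 of the 23 probes (all FASN and ME1 probes and 8 of SCD) did not overlap between the sets, 12 of them by name, and all were lower in replicates 5-8. Over all probes 16.4% did not overlap in high-RFI pigs, 10.5% with the lower values in replicates 5-8. In low-RFI pigs 0 member probes were free of overlap, where 4.38% of all probes were.

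In the fit of 4 groups, 437 of 32097 probes passed within high-RFI pigs (1.36%) and 0 within low-RFI pigs (0%), in limma, with 6602 (20.6%) in high-RFI pigs and 3612 (11.3%) in low-RFI pigs at an unadjusted p under 0.05. No member passed in either line. The smallest adjusted p in high-RFI pigs was 0.0610, for SCD at 395, which differed by -1.85 (SE 0.47), and in low-RFI pigs 0.417, for FADS1 at 855, at -0.40 (SE 0.17). SCD at 4084 differed by -1.95 (SE 0.51, adjusted p = 0.0645 in limma) in high-RFI pigs and by -0.98 (SE 0.51, adjusted p = 0.481 in limma) in low-RFI pigs. That the sets differ by line is not shown, since no member passed the interaction. Fitted on high-RFI pigs alone, 5 member probes passed: both of ME1 and those of SCD at 395, 4084 and 4962, where 4.71% of all probes passed.

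**Figure D4:**
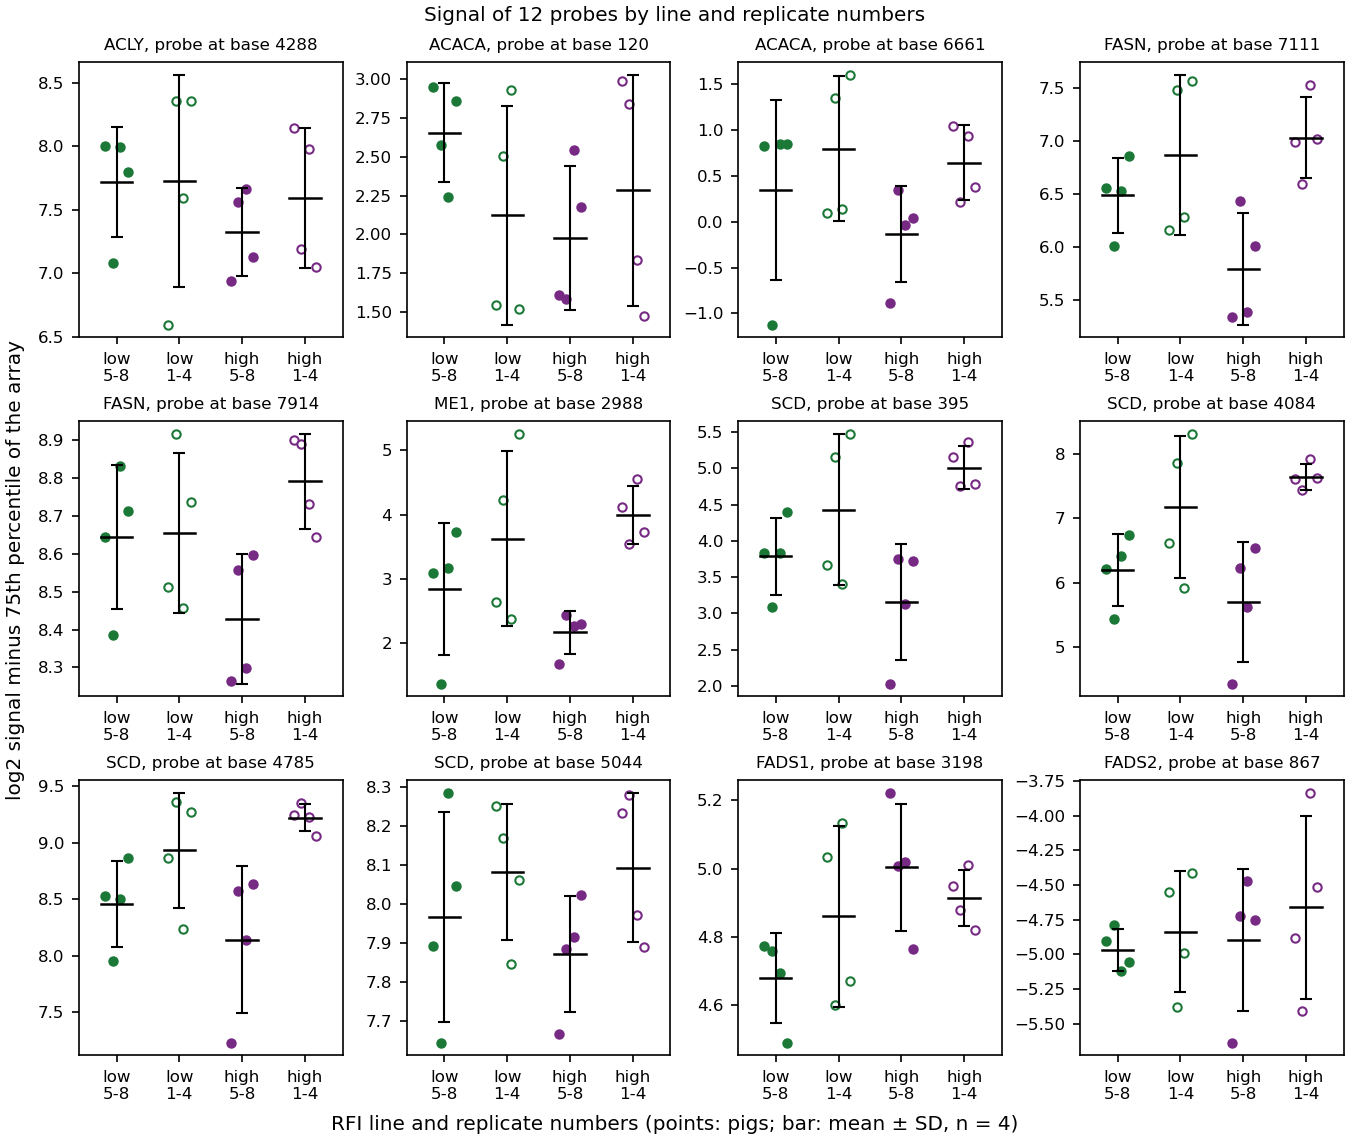
Log2 signal of 12 probes by line and replicate numbers, 1 point per pig, with the mean and SD of 4 pigs. The high-RFI columns of FASN at 7111, ME1 and SCD at 395, 4084 and 4785 do not overlap between replicates 5-8 and 1-4, whereas the low-RFI columns do, and each panel has its own axis.

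Of 45 measured marker genes 2 passed between the sets in limma (4.44%), against 5.03% of all probes. The adipocyte list averaged between -0.40 and 0.29 in replicates 5-8, against -0.30 to 0.34 in replicates 1-4, centred on each gene's mean. Of its 12 genes 9 were lower and 3 higher in replicates 5-8, and AQP7, the glycerol channel of adipocytes, fell by 0.67 (adjusted p = 0.0261 in limma). Over the 16 arrays the adipocyte list had an r of 0.79 with the mean of the 7 members, and the leukocyte list -0.48. Leukocyte markers ranged from -1.01 to 1.76 in replicates 5-8, against -0.54 to 0.26 in replicates 1-4, and 0 of 6 passed. Epithelial markers ranged from -0.96 to 3.24 in replicates 5-8, against -1.35 to 2.07 in replicates 1-4. Of the 6 measured, 4 were higher and 2 lower in replicates 5-8. Only CLDN4 passed, higher by 3.04 (adjusted p = 0.0227 in limma), and the others differed by -0.18 (CDH1) to 0.38 (EPCAM). All 12 measured skeletal muscle genes were higher in replicates 5-8 by value, with a median of 1.26, and 0 passed. Their level ranged from -0.94 to 7.94 in replicates 5-8, the highest on low-RFI replicate 8, against -1.08 to -0.41 in replicates 1-4. The leukocyte level was highest, at 1.76, on high-RFI replicate 5, the array with the lowest SCD. The part of these markers in the difference between the sets was not tested.

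Across the 16 pigs SCD, FASN and ME1 varied together. Each gene was read by its brightest probe, except ME1. That gene was read at 2988, the probe named for it, although its probe at 2096 was brighter. Of 21 pairs compared, 4 passed a Benjamini-Hochberg adjusted permutation p of 0.05 by Pearson r, and 5 by Spearman rho. FASN and SCD had r = 0.85 (rho = 0.82, permutation p = 4.0e-05, adjusted p = 0.00042, n = 16). ME1 and SCD had r = 0.85 (rho = 0.85, permutation p = 4.0e-05, adjusted p = 0.00042, n = 16). For FASN and ME1 r was 0.78 (rho = 0.84, permutation p = 0.00042, adjusted p = 0.0029, n = 16). ACLY and ME1 gave r = 0.67 (rho = 0.66, permutation p = 0.0044, adjusted p = 0.0232, n = 16). ACLY and FASN passed by rho alone, at rho = 0.69 (adjusted permutation p = 0.0212, n = 16). Their r was 0.57 (adjusted permutation p = 0.0852, n = 16). At the brighter ME1 probe, at 2096, r was 0.87 with SCD at 4785, 0.75 with FASN at 7914 and 0.59 with ACLY at 4288. Those 3 values were not tested.

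Counts of pairs from here on are by Pearson r. All 4 relations that passed by r kept a positive r without the arrays extreme for the first gene. Fewer pairs passed in some smaller sets of arrays. Without the 2 arrays farthest from the median of the first gene r was 0.78 for FASN and SCD, 0.85 for ME1 and SCD, 0.74 for FASN and ME1 and 0.64 for ACLY and ME1. Within replicates 5-8 the values were 0.80, 0.76, 0.82 and 0.84, and within replicates 1-4 they were 0.87, 0.77, 0.63 and 0.73. With 8 pigs in a set only FASN and SCD in replicates 1-4 passed after adjustment (exact permutation, adjusted p = 0.00885). After line and set were removed r was 0.83, 0.74, 0.71 and 0.77. Without low-RFI replicate 4, without high-RFI replicate 5 or without the 4 arrays with markers of other tissues, 3 of 21 pairs passed, and without any 1 of low-RFI replicate 6 and high-RFI replicates 1, 2 and 7 there were 5.

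ACACA at 120 and FADS1 at 3198 did not join them. ACACA had r between -0.36 and 0.32 with the other 6 genes, and FADS1 had negative r with 5 of the 6, the lowest -0.56 with FASN (rho = -0.58, permutation p = 0.0243, adjusted p = 0.0852, n = 16). With line and set removed, FADS1 had r of -0.83 with SCD, -0.74 with FASN and -0.70 with ME1. A gene was also read by the mean of its probes, but ME1 still at 2988 alone and FADS1 by its probes at 855 and 3198. Then 9 of 21 pairs passed, all positive. ACLY and ACACA reached r = 0.82 (adjusted p = 0.0010 by permutation, n = 16), where the brightest probes gave 0.32. In that reading FADS1 had r of 0.07 with SCD and -0.13 with FASN. The inverse relation seen at the probe at 3198 was thus not seen in the mean of the FADS1 probes at 855 and 3198.

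**Figure D5:**
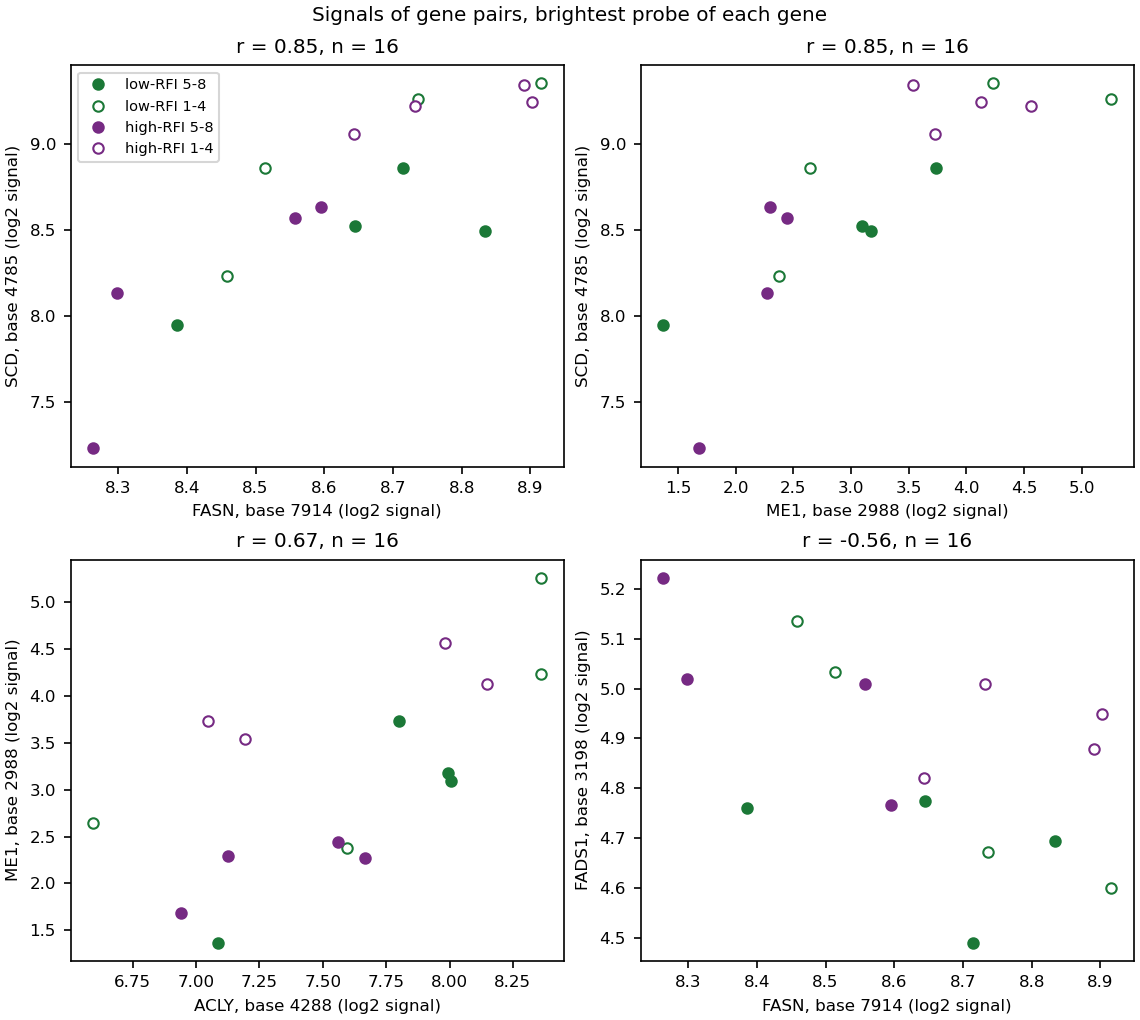
Log2 signals of 4 gene pairs on 16 arrays, with filled points for replicates 5-8 and open points for replicates 1-4. Each gene is read by its brightest probe, except ME1, which is read at 2988. SCD rises with FASN and with ME1, ME1 rises with ACLY, and FADS1 falls with FASN, at the r printed above each panel.

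The genes most like the enzymes were counted over 4441 other named genes by their r to the mean of the 7 members, each centred. Not every member followed that mean. Set against the mean of the other members, ACLY, FASN, ME1 and SCD had r of 0.65 to 0.78. For FADS1 it was -0.50, for ACACA -0.01 and for FADS2 0.15. The 8 highest were NDUFB8 (0.91), ACOT6 (0.90), ACSS2 (0.90), VPS28 (0.90), COX17, SARS, TOMM7 and ROMO1 (0.88 each), over 16 arrays. ACSS2, which makes acetyl-CoA from acetate in the cytosol, varied widely, with an SD of 0.81. NDUFB8 belongs to respiratory complex I and COX17 delivers copper to cytochrome oxidase. Of all genes 1.96% had r above 0.8, and the median was 0.06. After line and set were removed the 8 highest were C2H19orf70 (0.93), HSPE1 (0.92), MSRB1, NDUFB8 and UQCR10 (0.91 each), DLAT, TOMM7 and SDHD (0.90 each).

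Of 65 other genes of the pathway, 30 were measured, among them enzymes that feed acetyl-CoA and NADPH, elongases, and regulators. Between the lines 0 of 30 passed in limma, with 15 higher and 15 lower in low-RFI pigs, and USF1, a transcription factor that binds the FASN promoter in rodents, had the smallest p. Its difference was -0.27 (SE 0.11, unadjusted p = 0.0249). Between the sets 9 were higher and 21 lower in replicates 5-8, where 55.1% of all probes were lower. The median was -0.15, and that over all probes -0.03. In limma 1 of the 30 passed as higher and 1 as lower, where 5.03% of all probes passed, so the calls are near that share. NR1H3, the liver X receptor alpha that drives SREBF1, rose by 0.52 (SE 0.11, adjusted p = 0.0189 in limma). PRKAG1, a regulatory subunit of the AMP-activated kinase that inhibits ACACA, fell by 0.31 (SE 0.09, adjusted p = 0.0490 in limma).

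Other pathway genes did not pass. PGD, which makes NADPH in the pentose phosphate pathway, differed by -0.55 (adjusted p = 0.0837 in limma), ACSS2 by -0.70 (adjusted p = 0.252 in limma) and the elongase ELOVL5 by -0.57 (adjusted p = 0.208 in limma). SREBF1 differed by -0.02 and MLXIPL, the carbohydrate response factor, by -0.02, both with an adjusted p above 0.9 in limma. For MLXIPL that value averaged -0.58 in high-RFI pigs and 0.55 in low-RFI pigs (adjusted p = 0.377 and 0.575 in limma). In the interaction 0 of 30 passed, the smallest adjusted p being 0.723 in limma.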

How the data were processed

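RNA from the fat of 16 pigs was hybridised to Agilent 1-colour arrays, 1 per pig. Labelling with Cy3 started from 150 ng of total RNA with linear amplification, per the labels' protocols. The deposited intensities are Feature Extraction 10.7.3.1 output, per the file headers, with the processed signal background-subtracted within each array. The submitters' processing notes name R 2.10.0. A deposited table of log2 values equalled the log2 processed signal minus a constant on each array (Pearson r = 1). It lists 28963 spots.

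Outlier spots were left out, spots of a probe were averaged, and log2 signals were centred on the 75th percentile. The filter required a signal well above background on 8 or more arrays and, since outlier spots leave gaps, 6 or more values per line (added after these were seen), and left 32097 of 43603 probes. Lines and replicate sets were tested in limma 3.58.1 (R 4.3.3), two-sided, with Benjamini-Hochberg adjustment over all kept probes at 0.05, with the alternatives named in the closing section, and the code was tested on simulated data. SE and 95% intervals come from the fits. Correlations used 100000 resamples with 16 arrays and all 40320 orders with 8. Exact tests used 12870 arrangements of the lines and 4900 of the sets.

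ACL and other names were updated through RefSeq's gene table of Sscrofa11.1, used for names only. Genes outside the members were read by their brightest kept probe. The named genes are every member probe, pathway genes past the threshold (otherwise those with the smallest p, as values only) and the 8 genes most like the members. ELOVL5, PGD, ACSS2, SREBF1, MLXIPL and AQP7 were named after their values were seen. The members, lists and tests were chosen with earlier results of these data known. Replicates carry the same numbers in both lines, but same-numbered pigs did not deviate together (correlations from -0.15 to 0.12), so the numbers were not taken as pairs. P-values measure the spread between these pigs. The sequence of 1 further probe is not reported here.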

Additional observations from a re-analysis of the deposited data

Results flagged for a closer look

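At the FADS1 probe at 2501, high-RFI replicate 5 lay apart from the other 7 high-RFI arrays, at -2.89. Its gap to the nearest of them was 0.579 of the range of the 8 arrays, above Dixon's critical value at the 95% level. Of 46 groups of 8 arrays looked at in this way (23 probes in 2 lines) this was the 1 that passed, and chance alone passes about 1 in 20. The same array had the lowest signal at 8 of the 9 SCD probes.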

How the results depend on the processing

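Over all probes, the line comparison passed 0 probes under each alternative except within replicates 1-4 alone (5) and the leave-one-array fits (0 to 1), and 0 members in every one. The comparison of the sets, with 1616 probes, gave 17 with normexp background correction, 838 with no filter, 5403 with array weights, 0 without low-RFI replicate 8 and high-RFI replicates 2, 5 and 6 (6394 at an unadjusted p under 0.05), 0 within low-RFI alone (2707 at an unadjusted p under 0.05) and 573 to 4746 in leave-one-array fits, the most without low-RFI replicate 3. The causes were not tested. SCD at 4084 was no longer called with normexp (adjusted p = 0.149 in limma), with no filter (0.0562), without the 4 arrays (0.107) and within low-RFI alone (0.636). Member probes called numbered 2 with quantile scaling (1589 of all probes), 4 among probes above background on all arrays (1758 of 28001), 8 with slide as a block (1568 of all probes) and 13 with array weights. The interaction passed 0 in each fit. Normexp moved the median line difference of all probes to -0.12.

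Signs turned as follows, none of them for a called difference. Between the lines, ACACA at 120 (-0.16), FASN at 7914 (-0.14), ME1 at 2988 (-0.36) and SCD at 4785 (-0.29) did so within replicates 1-4 alone. With array weights FASN was -0.016, ME1 -0.29 and SCD -0.26, without the 4 arrays ME1 was -0.23 and SCD -0.19, and with quantile scaling SCD was -0.0087. Between the sets, within high-RFI alone ACACA at 120 was -0.31 and FADS1 at 3198 0.090. FADS1 at 3198 was 0.0036 with quantile scaling and 0.0046 with array weights, and with normexp FADS1 at 855 was 0.019 and FADS2 0.075. The interaction was -0.014 for ACLY at 4288 with array weights and -0.11 for FADS2 with normexp. In leave-one-array fits the line difference ran from -0.0096 to 0.082 for FASN at 7914, -0.13 to 0.42 for ME1 at 2988, -0.19 to 0.12 for SCD at 4785 and -0.25 to 0.012 for FADS2. The set difference ran from -0.012 to 0.25 for ACACA at 120 and -0.089 to 0.0073 for FADS1 at 3198, and the interaction from -0.11 to 0.48 for ACLY at 4288 and -0.17 to 0.35 for FADS2.

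Gene pairs called by Pearson r numbered 6 with quantile scaling (1 negative), 6 with normexp (1 negative) and 3 without the 4 arrays. After line and set were removed there were 7 (3 negative). By the mean of probes, with ME1 and FADS1 read by their named probes only, there were 9. The count was 0 within replicates 5-8, 1 within replicates 1-4 and 3 to 5 in leave-one-array fits. Without ACLY, a setting added after the data were seen, 3 of 15 passed. With the replicate block, 1802 probes passed between the sets and SCD at 4084 had an adjusted p of 0.0332 in limma, while 0 passed between the lines. The pigs share only a number. The number of arrays and the dim signal of FADS2 limit what can be seen.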
